A study of Mus musculus with 8 samples.

Results

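The genes studied here encode the nuclear-encoded subunits and assembly factors of respiratory complex I, the NADH dehydrogenase of the inner mitochondrial membrane. They were taken as every probe set of the array whose single gene symbol begins with Nduf, which gave 44 genes on 88 probe sets out of 18193 genes with such a probe set. Of the 44, 36 carry subunit names and 8 carry assembly factor names (Ndufaf). Where a gene had several, the one with the highest mean over the 8 arrays stands for it. A further 10 Nduf probe sets are shared with other symbols and were not used, and the subunit genes Ndufa11 and Ndufs6 were not analysed here.

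Complex I takes electrons from NADH through flavin and a chain of iron-sulphur clusters to ubiquinone and pumps protons with the energy released. Its core subunits carry these steps, supernumerary subunits surround the core, and assembly factors help to build or modify the complex without staying in it. Part of the core is encoded by mitochondrial DNA, so that nuclear and mitochondrial products must meet in the organelle. Cleavage embryos of the mouse live on mitochondria inherited from the oocyte, and their mitochondrial DNA is not replicated in the first cleavages.

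The study compared 2-cell mouse embryos, wild type against Brg1 mutant, and its title speaks of maternal BRG1, the ATPase of SWI/SNF chromatin remodelling complexes (gene Smarca4). Total RNA of 20 pooled embryos was amplified and hybridised to 1 single-channel expression array per sample, with 4 wild type and 4 mutant samples. The labels used here give no strain, age, allele or Cre driver for either group. They number the samples 1 to 4 in each group without saying how the pools were collected, so p-values measure only the spread between these samples. Values are MAS5 signals, which have no count behind them, so the number of arrays limits the precision. In pooled embryos, fewer cells of a type and less RNA per cell cannot be told apart.

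The brighter Smarca4 probe set read between 612.1 and 796 in wild type and between 200.9 and 387.5 in the mutant (log2 change -1.26, limma adjusted p = 0.0211), while its second probe set did not pass (log2 change 0.04, limma adjusted p = 0.963). The position of the deleted segment relative to these probe sets is not known from the labels. The 10 measured oocyte and 2-cell markers were above the background bound on all 8 arrays. Their summed signal was 28528.6 and 31800.5 in mutant replicates 1 and 2 and 18058.2 and 17019.4 in replicates 3 and 4. In wild type it was 14513.5 to 18575.5. Without mutant replicates 3 and 4, 4 of the 10 rose and 0 fell (limma), against 3.86% and 3.58% of all genes tested. Without replicates 1 and 2, 4 rose and 3 fell, against 19.2% and 24.4%. Mutant replicates 3 and 4 stood apart from the other arrays. Over the upper 50 percent of probe sets by mean signal they correlated at 0.969 with each other and at 0.747 to 0.758 with wild type. The summed signal of 18 granulosa and cumulus cell markers was 23167.1 and 19522.1 on these arrays against 2688.5 to 3535.8 in wild type and 2925.8 and 1794.5 in mutant replicates 1 and 2. Of the 18, 16 were above the bound on each of the arrays of replicates 3 and 4, against 10 to 13 in wild type and 14 and 8 in mutant replicates 1 and 2. Hsd3b1, Vim, Inha, Inhba and Fst made up most of the difference, while Amh and Ptx3 stayed under the bound on the arrays of replicates 3 and 4. Amhr2 read 1358.5 and 1451.3 on those arrays against 1353.5 to 2017.8 in wild type, and Cyp11a1 30.1 and 39.4 against 25.8 to 59.7. In the limma fit without mutant replicates 1 and 2, 7 of the 13 tested granulosa markers rose and 0 fell. Of all genes tested 19.2% rose and 24.4% fell in that fit. Among the 7, Hsd3b1, Vim and Fst were dim on the other arrays. They passed the brightness limit for testing only through replicates 3 and 4, so that limit favoured their rise in that fit. Summed blood markers read 765.2 and 838.1 on the arrays of replicates 3 and 4 against 255 to 425.3 in wild type. They read 349.2 and 404.6 in mutant replicates 1 and 2. Cd52 alone read 360.4 and 453.1 on the arrays of replicates 3 and 4, while Cd74 read 43.7 and 40.6 against 57.7 to 90.8 in wild type. Without mutant replicates 1 and 2, 2 of the 4 tested blood markers rose and 0 fell. Cd52, among the 2, also passed the brightness limit only through replicates 3 and 4. Summed oviduct markers read 1390 and 1259.5 on the arrays of replicates 3 and 4 against 505.4 to 775.4 in wild type. They read 605.9 and 912.6 in mutant replicates 1 and 2. Krt8 alone read 554.6 and 618.7 on the arrays of replicates 3 and 4, while Foxj1 read 20.6 and 9.5 against 22.1 to 38.7 in wild type. Without mutant replicates 1 and 2, 2 of the 4 tested oviduct markers rose and 0 fell. The actin 3 prime to 5 prime signal ratio was 7.04 and 4.88 on the arrays of replicates 3 and 4 against 12.9 to 21.1 on the others. The same ratio for Gapdh was 6.94 and 7.33 on those arrays, 6.63 and 6.76 in mutant replicates 1 and 2 and 8.58 to 10.1 in wild type. Hybridisation controls in mutant replicates 1 and 2 read 5.99 and 3.74 times the wild type mean. Most results below are therefore given over all 8 samples and also with either mutant pair left out; the fits share the wild type samples, and the part of the marker and ratio differences in the results was not tested.

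Promoter sequence is shown for genes on which the results turn, as RefSeq gives it on build GRCm38.p6. Ndufv3 and Ndufb8 passed the test as higher in the mutant, Ndufaf5 passed as lower, and Ndufaf4 carries the core motif of NRF1, a factor known to control genes of respiration, upstream of its start. Each line runs 5 prime to 3 prime on the gene's strand, covers only bases within 250 upstream of the start that no protein-coding gene covers, and has motif matches in capitals. Ndufv3 lies at chr17:31519986-31520114 (plus strand), Ndufb8 at chr19:44555443-44555692 (minus strand), Ndufaf5 at chr2:140170559-140170583 (plus strand) and Ndufaf4 at chr4:24897833-24898082 (plus strand).
Ndufv3: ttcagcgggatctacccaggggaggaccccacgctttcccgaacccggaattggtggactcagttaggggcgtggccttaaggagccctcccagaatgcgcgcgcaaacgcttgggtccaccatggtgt
Ndufb8: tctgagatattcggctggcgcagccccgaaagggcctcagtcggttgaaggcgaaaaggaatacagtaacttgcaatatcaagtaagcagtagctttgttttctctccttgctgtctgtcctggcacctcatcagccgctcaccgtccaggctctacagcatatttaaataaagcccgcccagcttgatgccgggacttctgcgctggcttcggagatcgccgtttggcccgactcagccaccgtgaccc
Ndufaf5: actcccacaatcctccgcgagacgc
Ndufaf4: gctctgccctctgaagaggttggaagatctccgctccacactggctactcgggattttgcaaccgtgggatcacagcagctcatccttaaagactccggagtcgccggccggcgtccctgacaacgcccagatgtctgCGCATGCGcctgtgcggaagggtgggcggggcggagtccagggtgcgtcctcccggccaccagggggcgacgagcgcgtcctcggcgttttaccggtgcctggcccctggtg
The upstream window of Ndufv3 is shortened because the gene Wdr4 reaches into it. That of Ndufaf5 is shortened because Esf1 and the annotated span of Ndufaf5 itself reach into it, and that of Ndufa1 is covered by another gene throughout.

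Windows of 250 bases before to 50 after the start were matched for 39 of the 44 genes and searched on both strands. The NRF1 core CGCATGCG was present in 3 of 39 (7.69%) against 2.07% of the windows of 27025 genes, namely Ndufa8, Ndufaf4 and Ndufaf5. The YY1 motif AAGATGGCG was present in 5 (12.8% against 1.64%), in Ndufa9, Ndufaf8, Ndufc1, Ndufs4 and Ndufs7, each time on the gene's strand between 11 and 36 bases after the start. The ETS motif CCGGAAG, which GABP binds, was present in 6 (15.4% against 9.93%) and the ESRRA motif TCAAGGTCA in 0 (against 0.466%). The motifs do not hold one another, and a match describes letters in a window, not a bound site. The genes that passed the test over all samples shared none of the 4 motifs beyond the NRF1 core in Ndufaf5, which lies 18 bases after its start.

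Of the 44 genes, 40 had a probe set bright enough to test, 34 subunit genes and 6 assembly factor genes. Over all 8 samples 3 rose in the mutant (Ndufv3, Ndufa1 and Ndufb8), 1 fell (Ndufaf5) and 36 did not pass (limma, Benjamini-Hochberg adjusted p up to 0.05 over all probe sets tested). Among all 11934 genes tested 3.01% rose and 4.03% fell, against 7.5% and 2.5% of the 40. Every mutant array lay above every wild type array for 5 of the 40, Ndufa1, Ndufa6, Ndufb8, Ndufs4 and Ndufv3, against 8.1% of all genes tested. Every mutant array lay below for 1, Ndufaf5, against 10.6%. Leaving out single samples moved the number called: with wild type replicates 1, 2, 3 or 4 removed it was 0, 2, 1 or 0, and with mutant replicates 1, 2, 3 or 4 removed it was 7, 15, 1 or 1. Of all genes tested 0.57%, 2.21%, 1.01% and 0.411% were called in the former 4 fits and 13.0%, 13.9%, 1.42% and 1.89% in the latter 4. At an unadjusted p of up to 0.05 in the same limma fits the number was 12 without wild type replicate 1 and 13 without wild type replicate 4. In the fit of all 8 samples it was 18 of the 40, against 3225 of all 11934 genes tested.

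The mutant samples were not alike for most of these genes. On the arrays of mutant replicates 3 and 4, 31 of the 40 genes read higher than on any other array, against 20% of all genes tested, and 2 read lower than on any other, against 25.8%. With mutant replicates 1 and 2 left out, 28 rose, 3 fell and 9 did not pass, against 19.2% and 24.4% of all genes in that fit. Leaving out mutant replicates 3 and 4 instead, 1 rose, 3 fell and 36 did not pass, against 3.86% and 3.58% of all genes. The log2 change had opposite signs in these fits for 19 genes, of which 17 were negative with replicates 1 and 2 and positive with replicates 3 and 4. The difference between the mutant pairs was not tested.

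**Figure D1:**
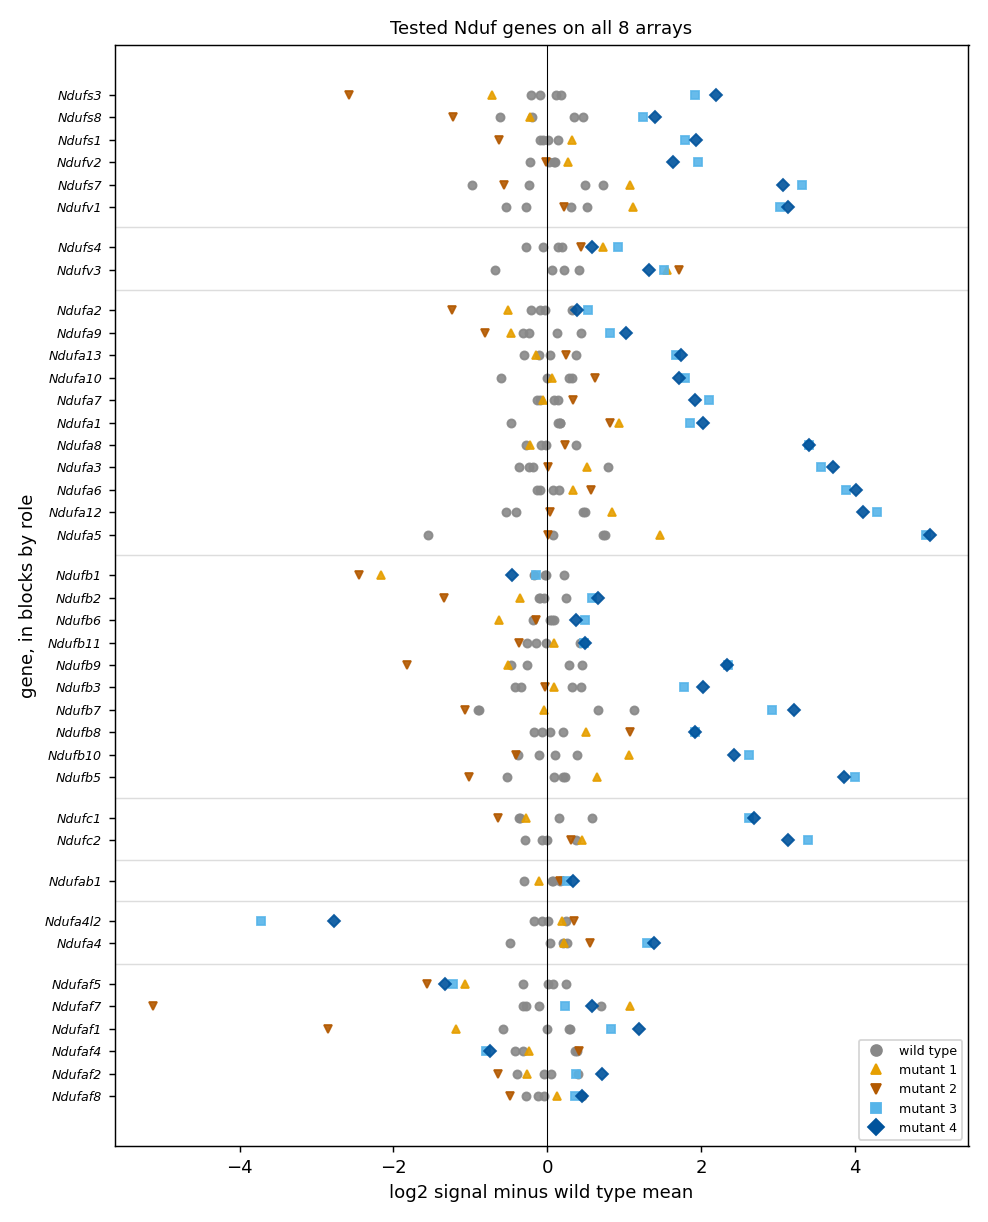
Log2 signal of each of the 40 tested genes on every array, minus the gene's wild type mean (x axis); rows are genes in blocks, from top to bottom core subunits, supernumerary S and V, A, B and C series, the acyl carrier gene Ndufab1, the family-name genes Ndufa4l2 and Ndufa4, and assembly factors. Grey circles are the 4 wild type arrays, triangles mutant replicates 1 and 2, and blue squares and diamonds mutant replicates 3 and 4, which lie right of every other array for 31 genes (20% of all genes tested did so).

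Ndufv3 encodes a small supernumerary subunit at the NADH-oxidising end of the complex. Its signal was 138.8, 258.6, 295.9 and 232 in wild type replicates 1 to 4 and 654.4, 732.9, 640.2 and 557.6 in the mutant. The groups did not overlap, and all 4 mutant samples were high. The mean was 231 ± 67.0 in wild type and 646 ± 71.8 in the mutant (SD, n = 4 each), which is a log2 rise of 1.53 with an SE of 0.27 (limma adjusted p = 0.0166), or 2.89-fold. It was the only one of the 40 that rose in both pairs: the log2 change was 1.64 without mutant replicates 3 and 4 (limma adjusted p = 0.0212) and 1.42 without replicates 1 and 2 (limma adjusted p = 0.00482). The call was lost without wild type replicate 1 or wild type replicate 4, with limma adjusted p-values of up to 0.05795 among the fits that leave out 1 sample.

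Ndufa1 is an X-linked gene for a short membrane-anchored subunit needed for assembly of the complex. It read 750.7, 484.9, 741.6 and 750.1 in wild type and 1280.3, 1176.3, 2436.9 and 2735.2 in the mutant. Every mutant sample was above every wild type sample, with replicates 3 and 4 the highest. The log2 rise was 1.41 with an SE of 0.32 (limma adjusted p = 0.0327), or 2.65-fold, from 682 ± 131 to 1907 ± 794 (SD, n = 4 each). With mutant replicates 3 and 4 left out Ndufa1 no longer passed, at a log2 change of 0.87 (limma adjusted p = 0.0705); with replicates 1 and 2 left out it was 1.94 (limma adjusted p = 0.000187).

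Ndufb8 encodes a subunit of the membrane arm. Its values were 309.1, 331.2, 398.2 and 355.1 in wild type and 490.8, 730.8, 1312.6 and 1318.6 in the mutant. The groups did not overlap, and mutant replicates 3 and 4 were again the highest. The mean went from 348 ± 38.1 to 963 ± 419 (SD, n = 4 each), with a log2 change of 1.36 (SE 0.33, limma adjusted p = 0.0379), or 2.56-fold. The log2 change was 0.79 without mutant replicates 3 and 4 (limma adjusted p = 0.0947) and 1.92 without replicates 1 and 2 (limma adjusted p = 8.15e-05). Centring each array on its median ended the calls of Ndufa1 and Ndufb8 (limma adjusted p = 0.06595 and 0.07144). Ndufb8 also did not pass with its probe sets averaged (limma adjusted p = 0.3045), with no brightness limit (0.05226) or with no intensity trend in the variance prior (0.05064). Both Ndufa1 and Ndufb8 kept the call in 2 of the 8 fits that leave out 1 sample, those without mutant replicate 1 or 2, and lost it without any other single sample (limma adjusted p of up to 0.08938 and 0.1145).

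Ndufaf5 encodes a hydroxylase that modifies the core subunit NDUFS7 early in assembly. Its signal was 178, 120.5, 150.8 and 158.3 in wild type and 71.5, 50.9, 64.2 and 60 in the mutant. All 4 mutant samples were low and lay within a narrow range, with no overlap. The mean fell from 152 ± 23.9 to 61.7 ± 8.60 (SD, n = 4 each), a log2 change of -1.30 with an SE of 0.25 (limma adjusted p = 0.0207), or 2.46-fold. The size was nearly the same in either pair, with log2 changes of -1.32 without mutant replicates 3 and 4 (limma adjusted p = 0.0279) and -1.28 without replicates 1 and 2 (limma adjusted p = 0.00281). Of the fits that leave out 1 sample it passed in 3, and its call was lost without wild type replicate 1, 3 or 4 or mutant replicate 3 or 4 (limma adjusted p of up to 0.08337), while the log2 change stayed between -1.40 and -1.21. The gene, like Ndufv3 and Ndufa1, has 1 probe set here.

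**Figure D2:**
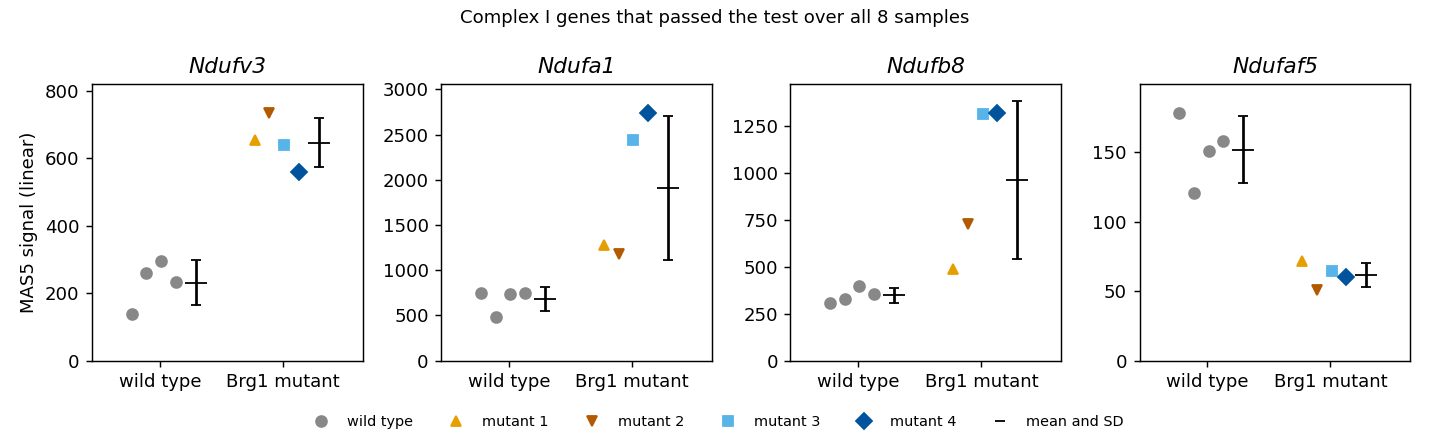
MAS5 signal on a linear axis for the 4 genes that passed over all 8 samples, 1 panel per gene; points are single arrays, and the black bar gives the mean and SD of 4 samples per group. The mutant points do not overlap wild type in any panel, and mutant replicates 3 and 4 lie above replicates 1 and 2 for Ndufa1 and Ndufb8 but not for Ndufv3 or Ndufaf5.

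The core subunit genes did not pass over all 8 samples. All 6 that were tested rose with mutant replicates 1 and 2 left out, against 19.2% of all genes tested. Of these 6 genes 3 had an unadjusted limma p of up to 0.05 over all samples, against 3225 of all 11934 genes tested. Their median log2 change was 0.91 over all samples, -0.01 without mutant replicates 3 and 4 and 1.96 without replicates 1 and 2, beside medians of -0.05, 0.04 and -0.19 over all genes tested.

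Ndufv1, whose product binds NADH and flavin, read 139.8, 161, 92.8 and 77.6 in wild type and 245.4, 131.3, 920.6 and 989.2 in the mutant. Mutant replicate 2 lay within the wild type range and the other 3 above it. The log2 change was 1.88 (limma adjusted p = 0.0889) over all samples, 0.67 without replicates 3 and 4 (limma adjusted p = 0.302) and 3.08 without replicates 1 and 2 (limma adjusted p = 0.000102). Ndufv2, an iron-sulphur subunit that sits against NDUFV1, read 419.2, 415.9, 397.8 and 335.7 in wild type and 469.2, 387.9, 1524.2 and 1213.8 in the mutant. Ndufs1, the largest iron-sulphur subunit, read 125, 109.2, 113.7 and 105.6 in wild type and 141.2, 73.4, 390.9 and 431.6 in the mutant. In both genes replicate 2 was the lowest mutant sample and replicates 3 and 4 were the high ones. Their log2 changes over all samples were 0.96 for Ndufv2 (limma adjusted p = 0.181) and 0.85 for Ndufs1 (limma adjusted p = 0.325). Without mutant replicates 3 and 4 they were 0.13 and -0.15 (limma adjusted p = 0.775 and 0.795), and without replicates 1 and 2 they were 1.80 and 1.86 (limma adjusted p = 0.000139 and 0.00016).

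Ndufs3, Ndufs7 and Ndufs8 encode core subunits of the part of the complex that hands electrons to ubiquinone. Ndufs3 read 193, 202.4, 167.8 and 154.4 in wild type and 108.8, 30, 672.9 and 816.5 in the mutant, so that replicates 1 and 2 were below and replicates 3 and 4 above every wild type sample. The reading of replicate 2 was under the background bound of its array, 37.71. Its log2 change was 0.21 over all samples (limma adjusted p = 0.914), -1.64 without replicates 3 and 4 (limma adjusted p = 0.0568) and 2.06 without replicates 1 and 2 (limma adjusted p = 0.000111). Ndufs8 read 730, 674.8, 345.3 and 463.5 in wild type and 453.2, 226.9, 1260.9 and 1400.7 in the mutant, with replicate 2 below and replicates 3 and 4 above the wild type range (log2 change 0.30, limma adjusted p = 0.779). With replicates 3 and 4 left out it was -0.72 (limma adjusted p = 0.267), and with the other pair left out 1.33 (limma adjusted p = 0.00656). Ndufs7, the subunit of the last iron-sulphur cluster and the substrate of NDUFAF5, read 169.7, 143.7, 86.6 and 51.8 in wild type and 215.7, 69.4, 1012 and 854 in the mutant. Its wild type samples already spread over 3-fold, and it did not pass, with a log2 change of 1.72 (limma adjusted p = 0.192). Of the mutant samples, replicate 2 lay inside the wild type range and the others above it. By pair the log2 change of Ndufs7 was 0.26 in the fit without replicates 3 and 4 (limma adjusted p = 0.805) and 3.18 in that without replicates 1 and 2 (limma adjusted p = 0.000471).

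Among the supernumerary subunits the A series had the highest median of the larger groups. The 11 tested A series genes had a median log2 change of 1.41 over all samples, 0.26 without mutant replicates 3 and 4 and 2.01 without replicates 1 and 2. In the last fit 10 of the 11 rose, against 19.2% of all genes tested. The 10 B series genes had medians of 0.78, -0.29 and 1.91, with 7 rising in the last fit, and the 2 C series genes had 1.46, -0.04 and 2.96, with both rising.

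The genes whose mutant pairs differed most were Ndufa5, Ndufb5 and Ndufa12. Ndufa5, a subunit on the matrix side near the ubiquinone site, read 7.8, 24, 38.4 and 37.9 in wild type and 63.1, 22.9, 693.2 and 717.3 in the mutant, and wild type replicates 1 and 2 and mutant replicate 2 were under the background bound. Its wild type mean was under the brightness limit, so that it was tested only through its signal in mutant replicates 3 and 4. Ndufb5, of the membrane arm, read 90.6, 53.7, 82.6 and 89.7 in wild type and 121.3, 38.3, 1237.8 and 1128.5 in the mutant. Ndufa12, which takes the place that the assembly factor NDUFAF2 holds before it, read 152.1, 154.7, 75.9 and 83.7 in wild type and 197.8, 113.4, 2159.2 and 1895.9 in the mutant. In all 3 genes replicates 3 and 4 stood more than 10-fold above the wild type mean, while replicates 1 and 2 lay on either side of it. Without replicates 1 and 2 the rises were 30.9-fold for Ndufa5, 15.3-fold for Ndufb5 and 18.3-fold for Ndufa12 (limma adjusted p = 0.000233, 1.53e-05 and 3.1e-05). For Ndufa5 that fold rests on the wild type readings under the bound, and with them set to the bound it was 21.6. Over all samples none of the 3 passed (limma adjusted p = 0.127, 0.254 and 0.131). Second probe sets of Ndufb5 and Ndufa12 that were tested also rose without replicates 1 and 2, with log2 changes of 3.31 and 4.13 (limma adjusted p = 1.94e-05 and 2.97e-05).

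Ndufa6 and Ndufs4 separated the groups without passing the test. Ndufa6, whose product binds the mitochondrial acyl carrier protein, read 84.4, 100.1, 82.5 and 94.5 in wild type and 114.1, 133.3, 1333.8 and 1452.5 in the mutant. Replicates 1 and 2 were just above wild type and replicates 3 and 4 far above, and the log2 change was 2.20 (SE 0.79, limma adjusted p = 0.116). It was 0.45 without replicates 3 and 4 (limma adjusted p = 0.308) and 3.95 without replicates 1 and 2 (limma adjusted p = 5.42e-06). Ndufs4, a subunit whose loss in mice gives a Leigh-like disease, read 50.6, 43.4, 58.1 and 60.1 in wild type and 87.2, 71.3, 99.8 and 79 in the mutant. Its 4 mutant samples were alike, and the log2 change was 0.67 (SE 0.27, limma adjusted p = 0.150), with 0.58 and 0.75 in the same pair fits (limma adjusted p = 0.282 and 0.0555). The probe sets of Ndufs4 disagreed: its other tested probe set read 13.3 to 34.6 in wild type, 10.5 and 17.8 in mutant replicates 1 and 2 and 338.7 and 316.7 in replicates 3 and 4.

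Ndufb11 and Ndufb6 had 2 of the 3 highest wild type signals, the other being Ndufaf4. Ndufb11, of the membrane arm, read 2504.3, 1684.3, 1844.9 and 1548.5 in wild type and 1981.7, 1442.7, 2598.7 and 2610.7 in the mutant (log2 change 0.17, SE 0.27, limma adjusted p = 0.745). Ndufb6, of the same arm, read 1430.3, 1186.8, 1378.1 and 1401.7 in wild type and 869.4, 1214.8, 1887.9 and 1747.2 in the mutant (log2 change 0.02, SE 0.28, limma adjusted p = 0.973). In both genes the groups overlapped and replicates 3 and 4 were the highest mutant samples. Neither of these probe sets passed in the fit of either pair. Another probe set of Ndufb11 rose without replicates 1 and 2, with a log2 change of 0.61 (limma adjusted p = 0.0289). A further one of Ndufb11 and the second of Ndufb6 did not pass there, at 0.46 and 0.42 (limma adjusted p = 0.0793 and 0.0853). The acyl carrier gene Ndufab1, which also serves mitochondrial fatty acid synthesis, had a log2 change of 0.16 (SE 0.22, limma adjusted p = 0.687) and of 0.30 without replicates 1 and 2 (limma adjusted p = 0.242).

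Ndufb1, a small membrane arm subunit, was picked out after its values were seen because it ran against the others. It read 86.9, 101.5, 85.6 and 78 in wild type and 19.6, 16, 79.4 and 64 in the mutant. Replicates 1 and 2 were under the background bound and replicates 3 and 4 close to wild type. With replicates 3 and 4 left out its log2 change as measured was -2.31 (limma adjusted p = 0.00897). With the bound taken as its level it was at least 2.73-fold lower than wild type, which was not tested. With replicates 1 and 2 left out its log2 change was -0.30 (limma adjusted p = 0.366).

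The 15 tested genes not described with all their values were the rest of the A, B and C series and Ndufab1. Their log2 changes over all samples lay between -0.21 (Ndufa2) and 1.95 (Ndufa3), with limma adjusted p-values between 0.121 and 0.894. On the array of mutant replicate 3 they read between 412.5 and 2612.2, with a median of 1107.8, against a median of 183.4 on that of mutant replicate 2. Of 31 tested probe sets that did not represent their gene, 26 had the sign of the representative. Of the 31, 0 passed over all samples and 0 passed without replicates 3 and 4. Without mutant replicates 1 and 2, 22 rose and 0 fell, against 19.2% and 24.4% of all genes tested. Some of the 22, such as 1 each of Ndufs4 and Ndufc2, were dim on the other arrays. They passed the brightness limit only through replicates 3 and 4, so that limit favoured their rise in that fit.

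Ndufa4 and Ndufa4l2 share the family name, but the NDUFA4 protein is now counted as part of complex IV, and Ndufa4l2 is its hypoxia-induced relative. Ndufa4 read 149.4, 104.7, 168 and 174.6 in wild type and 170, 214.3, 358 and 383.6 in the mutant, with overlap at replicate 1 (log2 change 0.86, limma adjusted p = 0.127). Its change was 0.38 without replicates 3 and 4 (limma adjusted p = 0.441) and 1.34 without the other pair (limma adjusted p = 0.00281). Ndufa4l2 read 61.6, 77, 65.1 and 57.3 in wild type and 73.8, 82.5, 4.9 and 9.5 in the mutant. Replicates 1 and 2 were like wild type and replicates 3 and 4 under the background bound, the reverse of Ndufb1. With replicates 1 and 2 left out the log2 change of Ndufa4l2 as measured was -3.25 (limma adjusted p = 0.000296). With the bound taken as its level it was at least 4.20-fold lower, which was not tested. Over all samples its log2 change was -1.49 (limma adjusted p = 0.293).

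The assembly factor genes differed from the subunit genes in their medians. The median log2 change of the 6 tested was -0.42 over all samples, -0.88 without mutant replicates 3 and 4 and 0.41 without replicates 1 and 2. For the 34 subunit genes it was 1.01, 0.09 and 1.91. No test of this difference was made. Without mutant replicate 2 the assembly factor median was 0.28, so its sign over all samples rests on that array. Ndufaf1 and Ndufaf7 were under the background bound there, and with readings under the bound set to it the assembly factor medians were -0.0023 over all samples, -0.37 without replicates 3 and 4 and 0.41 without replicates 1 and 2. With replicates 1 and 2 left out 1 of the 6 rose and 2 fell, against 27 and 1 of the 34 subunit genes and 19.2% and 24.4% of all genes tested. Ndufa4 is among the 27 and the 1 is Ndufa4l2; of the other 32 genes 26 rose and 0 fell, with a median of 1.93.

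Ndufaf1, a chaperone of the membrane arm that works with ECSIT and ACAD9, read 95.6, 94.9, 78 and 52.5 in wild type and 34.2, 10.8, 138.7 and 178.5 in the mutant. Replicates 1 and 2 were below and replicates 3 and 4 above every wild type sample, and replicate 2 was under the background bound of its array. It fell without replicates 3 and 4, by 2.02 on the log2 scale (limma adjusted p = 0.0425; log2 change -1.12 with replicate 2 set to the bound), and rose without replicates 1 and 2, by 1.01 (limma adjusted p = 0.0252), and it had a log2 change of -0.51 over all samples (limma adjusted p = 0.734).

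Ndufaf4, an early factor that works with NDUFAF3, read 1082.2, 1161.9, 1896.3 and 1856.8 in wild type and 1233.3, 1927.4, 838.9 and 863.5 in the mutant. Here replicates 3 and 4 were the lowest of all arrays. It fell without replicates 1 and 2, by 0.77 on the log2 scale (limma adjusted p = 0.0403), and its log2 change was 0.09 without replicates 3 and 4 (limma adjusted p = 0.888). Its second probe set read lowest on replicate 3 and had a log2 change of -0.46 without replicates 1 and 2 (limma adjusted p = 0.225).

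Ndufaf2, the paralogue of Ndufa12, read 186.5, 146.4, 253.3 and 200 in wild type and 161, 124.2, 250.5 and 317.2 in the mutant (log2 change 0.05, SE 0.33, limma adjusted p = 0.947). Ndufaf8, whose product stabilises NDUFAF5, read 334.7, 472.7, 285.7 and 317.5 in wild type and 376.4, 247.5, 445.5 and 475 in the mutant (log2 change 0.11, SE 0.28, limma adjusted p = 0.838). In both the groups overlapped and neither passed in either pair. Ndufaf7, a methyltransferase of the mitochondrial matrix, read 98, 191.7, 109.8 and 95 in wild type and 249.9, 3.4, 139 and 177 in the mutant, where replicate 2 alone lay under the background bound (log2 change -0.81, SE 1.13, limma adjusted p = 0.707). The pair fits gave -2.02 without replicates 3 and 4 (limma adjusted p = 0.350) and 0.41 without replicates 1 and 2 (limma adjusted p = 0.332).

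Ndufaf3 and Ndufaf6 were too dim to be tested, as were the subunit genes Ndufs5 and Ndufb4. Ndufaf3 read 12.3, 39.4, 23.1 and 17.4 in wild type and 20.7, 2.3, 51.7 and 58.1 in the mutant. Ndufaf6 read 1.1, 6.4, 16.9 and 22 in wild type and 21.1, 69.3, 76.4 and 87.7 in the mutant. Both were highest on mutant replicate 4, and the background bound was 14.74 to 37.71 over the arrays. Ndufs5, an intermembrane-space subunit, read 32.7, 8, 9 and 5.2 in wild type and 27.1, 7.4, 77.9 and 116.6 in the mutant. Ndufb4, of the membrane arm, read 62.7, 67.6, 40 and 51.5 in wild type and 8.1, 43.1, 22.7 and 12.9 in the mutant, so the first was high in replicates 3 and 4 and the second low in 3 of 4 mutant samples. Medians over all 44 genes without the brightness limit were 0.87 over all samples, 0.03 without mutant replicates 3 and 4 and 1.78 without replicates 1 and 2, the same to 2 decimals as over the 40.

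**Figure D3:**
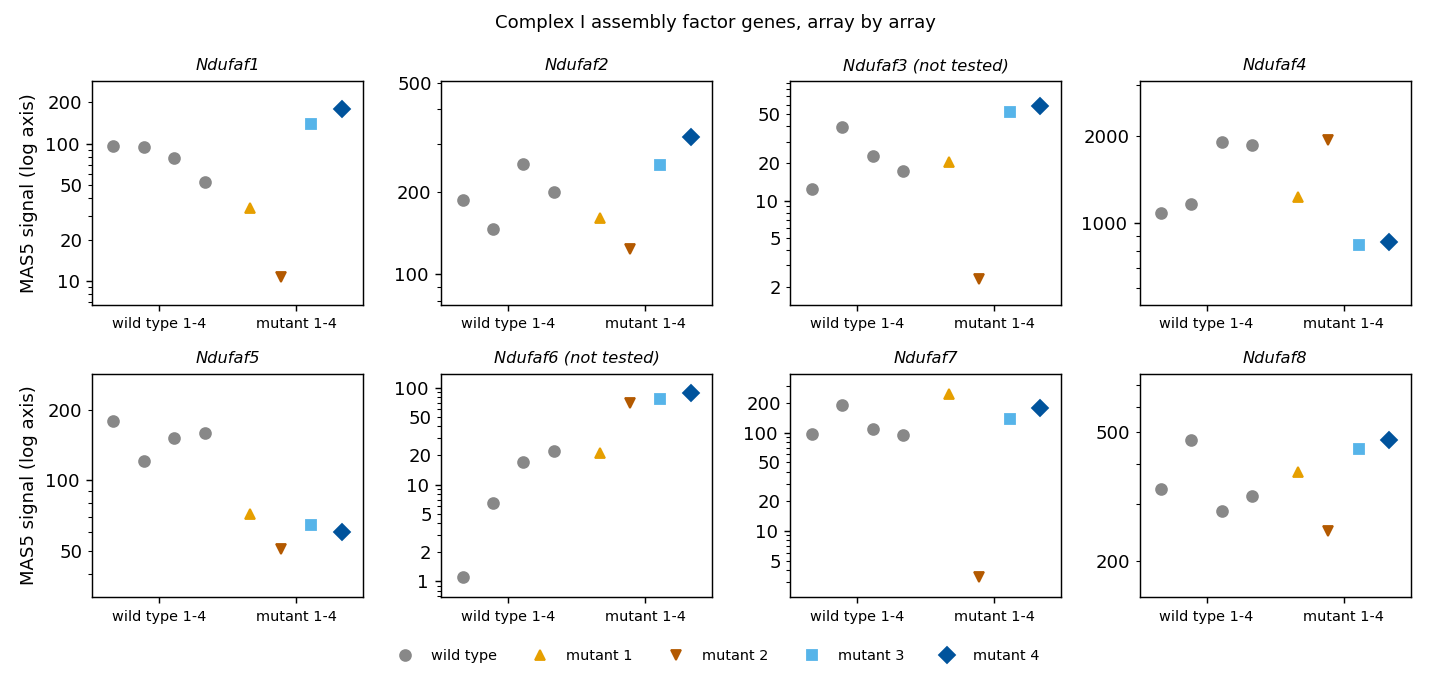
MAS5 signal on a log axis for the 8 assembly factor genes, 1 panel per gene, with wild type replicates 1 to 4 in grey on the left and mutant replicates 1 to 4 on the right of each panel. Ndufaf5 is low in all 4 mutant samples, Ndufaf4 is low in replicates 3 and 4, and Ndufaf1 is low in replicates 1 and 2 and high in 3 and 4.

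Array by array, the median deviation of the 34 subunit genes from their wild type mean was 0.14 and 0.00 on the log2 scale in mutant replicates 1 and 2 and 1.89 and 1.93 in replicates 3 and 4, against -0.10 to 0.11 in wild type. For the assembly factors it was -0.25, -1.10, 0.30 and 0.52 in mutant replicates 1 to 4. The genes of the other respiratory complexes were set beside them from a list of 40. Of these 0 passed over all 8 samples (limma), where 3.01% of all genes tested rose and 4.03% fell. Of the 40, 7 had an unadjusted limma p of up to 0.05, against 3225 of all 11934 genes tested. Without mutant replicates 1 and 2, 33 rose and 1 fell, against 19.2% and 24.4% of all genes tested. Without replicates 3 and 4, 0 rose and 1 fell, against 3.86% and 3.58%. The median log2 changes of the 40 were 0.51 over all samples, 1.44 without replicates 1 and 2 and -0.26 without replicates 3 and 4.

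**Figure D4:**
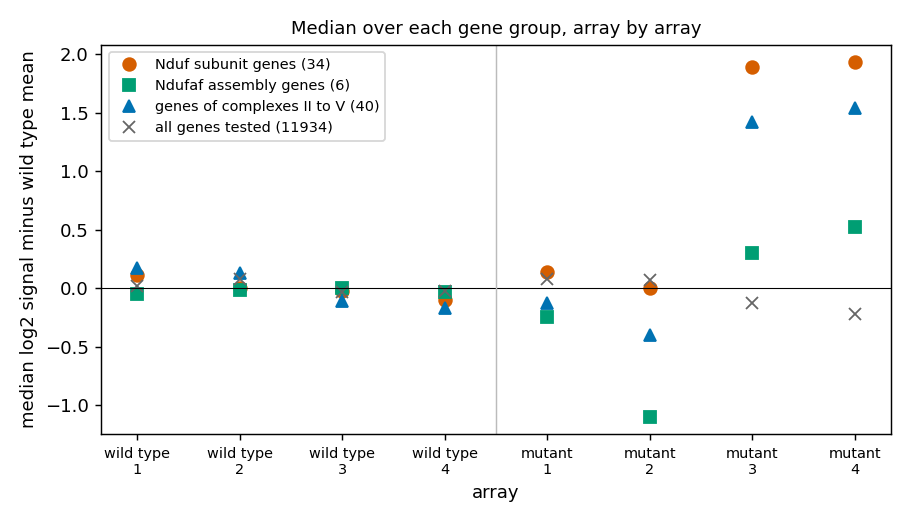
Median over each gene group of the log2 signal minus the wild type mean (y axis), for each of the 8 arrays (x axis), with the number of genes in the legend. The subunit genes and the genes of complexes II to V are high in mutant replicates 3 and 4, where the median of all genes tested is slightly below 0, and the assembly factors reach their lowest point, -1.10, in mutant replicate 2.

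Complex I assembly genes without an Nduf name, such as Ecsit, Acad9 and Tmem126a, numbered 11 tested. Of these 0 passed over all samples (limma), with a median log2 change of 0.40. Of the 11, 3 had an unadjusted limma p of up to 0.05, against 3225 of all 11934 genes tested. Without mutant replicates 1 and 2, 5 rose and 0 fell, against 19.2% and 24.4% of all genes tested. Tmem186, among the 5, passed the brightness limit only through replicates 3 and 4. Of 12 tested regulators of mitochondrial gene expression, 1 fell and 0 rose over all samples, and the median was -0.48. Among all genes tested 4.03% fell and 3.01% rose. The one that fell was Gabpa, the DNA-binding subunit of GABP, which acts on genes of the respiratory chain. It read 1334.9, 1141.8, 1049.6 and 906.1 in wild type and 664.1, 278.8, 279 and 331.8 in the mutant, where every sample was below wild type (log2 change -1.60, limma adjusted p = 0.0202). It was -1.35 without replicates 3 and 4 (limma adjusted p = 0.0446) and -1.85 without replicates 1 and 2 (limma adjusted p = 0.000165). With replicates 1 and 2 left out 2 of the 12 rose and 5 fell, against 19.2% and 24.4% of all genes tested. With replicates 3 and 4 left out 0 rose and 2 fell, against 3.86% and 3.58%.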

How the data were processed

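RNA of 8 pools of 2-cell embryos was measured on 1 single-channel array each. The deposited intensity values are MAS5 signals, per the submitters' processing notes, and their trimmed mean was 150.001 on every array, so no further scaling was applied. Probe sets were named through the platform annotation of 2016. Signals under 1 were set to 1 and put on the log2 scale. Control probe sets were left out, and the 22518 of 45037 probe sets in the upper 50 percent by mean log2 signal were tested with limma 3.58.1 in R 4.3.3 (lmFit and eBayes with an intensity trend, two-sided, Benjamini-Hochberg over all of them, threshold 0.05). Folds are log2 changes put back on the linear scale.

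The background bound is the 95th percentile of 27 Bacillus control probe sets of each array, chosen after seeing the data. The members and gene lists were chosen with earlier results of these data known. Genes given with every value were those that passed, those that separated the groups, the core subunits, the assembly factors, the 3 brightest in wild type, the 3 with the largest difference between the mutant pairs, and Ndufa4 and Ndufa4l2. Ndufb1, Ndufs5, Ndufb4 and Gabpa were added after their values were seen. Deviations of samples with the same replicate number correlated at 0.02, -0.18, -0.13 and -0.09, so the numbers were not taken to pair samples. The fit was tested on simulated data with the wild type spread and the same shift in every mutant sample. The mutant pairs of these data were not alike, so that test does not cover them. Alternatives covered scaling, the brightness limit, the log offset, the variance prior, array weights, the replicate block, the choice of probe set and left-out samples. No protein sequences were used.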

Additional observations from a re-analysis of the deposited data

Results flagged for a closer look

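In 3 of 52 groups of 4 samples examined, over 26 genes, 1 array lay far from the other 3 by Dixon's criterion, which chance alone meets in about 1 in 20 groups. Ndufa1 read 484.9 in wild type replicate 2, while the other wild type arrays lay between 741.6 and 750.7. Ndufaf6 read 21.1 in mutant replicate 1 against 69.3 to 87.7 in the other mutant samples, and it was too dim to be tested. Ndufaf7 read 3.4 in mutant replicate 2, under the background bound, against 139 to 249.9 in the others.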

How the results depend on the processing

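Of the 40 tested genes 4 passed as reported. The number was 2 with each array centred on its median (9.55% of all genes passed), 33 with array weights (52.7%), 0 with the replicate number as a block (limma; 17 had an unadjusted p of up to 0.05, and 9 of all genes passed) and 31 without mutant replicates 1 and 2 (43.5%); leaving out 1 sample gave 0 to 15. It was 3 or 4 under the other settings. The block ended the calls of Ndufa1, Ndufaf5, Ndufb8 and Ndufv3 (limma adjusted p = 0.07109, 0.06932, 0.07676 and 0.06764), median centring those of Ndufa1 and Ndufb8. Median centring moved the median of all genes from -0.05 to -0.22. The subunit median stayed positive under every setting run. The assembly factor median was 0.35 with array weights and 0.41 without mutant replicates 1 and 2, and lay between -0.64 and 0.28 when 1 sample was left out.

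Of the tested genes given with every value, these changed sign, and the cause was not tested. Log2 changes were -0.0209 for Ndufaf2 after quantile normalisation. With median centring they were -0.13 for Ndufaf2, -0.0621 for Ndufaf8, -0.0049 for Ndufb11 and -0.15 for Ndufb6. With 75th percentile centring they were -0.10 for Ndufaf2, -0.0305 for Ndufaf8 and -0.12 for Ndufb6. Array weights gave 0.92 for Ndufaf1 and 0.37 for Ndufaf7. Averaging the probe sets of a gene gave -0.015 for Ndufaf8, and leaving out probe sets that may cross-match gave -0.0008 for Ndufb11. Without mutant replicates 3 and 4 the values were 0.27 for Ndufa4l2, -0.45 for Ndufaf2, 0.088 for Ndufaf4, -0.18 for Ndufaf8, -0.14 for Ndufb11, -0.19 for Ndufb5, -0.39 for Ndufb6, -0.15 for Ndufs1, -1.64 for Ndufs3 and -0.72 for Ndufs8. Without mutant replicates 1 and 2 they were 1.01 for Ndufaf1 and 0.41 for Ndufaf7. A further 5 and 2 tested genes changed sign in these fits. Leaving out 1 sample gave -1.07 to 0.28 for Ndufaf1, -0.17 to 0.28 for Ndufaf2, -1.44 to 0.63 for Ndufaf7, -0.13 to 0.24 for Ndufb6, -0.46 to 1.13 for Ndufs3 and -0.0662 to 0.81 for Ndufs8. Signal under the bound limits Ndufaf3, Ndufaf6, Ndufs5 and Ndufb4, and on 1 to 3 arrays Ndufa5, Ndufaf1, Ndufaf7, Ndufs3, Ndufb1 and Ndufa4l2. Setting such readings to the bound, chosen after seeing the data, left the medians over all samples at 0.87 for the 40 genes and 1.01 for the subunits.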
